A study of Mus musculus with 14 samples.

Results

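The genes of fatty acid uptake and oxidation were examined in heart and hippocampus of young and adult mice, as a list of 37 member genes from the enzymes that free fatty acids from lipoproteins to the flavoproteins that take up the electrons of beta-oxidation. Each gene was read from a probe set annotated with that gene alone, and where a gene had several such probe sets, the value came from the probe set with the highest mean over the 14 arrays. By this rule 35 of the 37 members were measured, among 18193 genes in all. Acsl1, a long-chain acyl-CoA synthetase, had no probe set named here, and the probe set of Cpt1b, the muscle form of carnitine palmitoyltransferase 1, also lists Gm44502 and Chkb, so no value is given for either.

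All samples came from C57BL/6 mice without any treatment, and their RNA was hybridized to single-colour Affymetrix mouse arrays. Pup heart and pup hippocampus came from animals 7 days old, sex not given, with 3 biological replicates and 1 array each for either tissue. Adult heart and adult hippocampus were RNA bought from a supplier, from male mice 10 weeks old, with 2 biological replicates for each tissue and 2 technical arrays per replicate, which were averaged. Age thus went together with RNA source and preparation, and the effects of these cannot be told apart from that of age. Each value is an average over all the cells of a tissue sample, in which fewer cells of a type and less RNA per cell cannot be told apart.

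Fatty acids reach a cell from albumin or, through lipoprotein lipase, from triglyceride carried in lipoproteins, cross the membrane and are activated to acyl-CoA. Long chains enter mitochondria as carnitine esters and are then shortened in repeated cycles of dehydrogenation, hydration, a second dehydrogenation and thiolysis, with the electrons of the opening step passed through the electron transfer flavoprotein to ubiquinone. The heart draws much of its energy from this pathway after birth, whereas the brain relies mainly on glucose and, during suckling, on ketone bodies, with beta-oxidation found mostly in its glia.

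Expression values are given on the log2 scale, on which a difference of 1 is a doubling, and a gene was called higher or lower where its limma p-value, adjusted over all genes, was below 0.05. The tissue labels were checked with marker genes. The 8 cardiomyocyte markers averaged 15.42 in pup heart and 14.41 in adult heart, against 10.28 in pup hippocampus and 8.87 in adult hippocampus, and 8 of 8 were lower in pup hippocampus and 7 of 8 in adult hippocampus than in heart of the same age. Astrocyte markers were higher in hippocampus for 4 of 7 genes in pups, where 1, Gja1, was lower (12.74 against 14.41 in pup heart), and for 3 of 7 in adults, and neuron markers for 2 of 8 and 3 of 8. The other neuron markers, 6 in pups and 5 in adults, were not called. Map2, for one, averaged 15.27 in pup heart and 15.27 in pup hippocampus, and Neurod2 15.35 and 15.38. The probe set in use can thus read as bright in heart for a neuron marker, and the cause was not tested. Fibroblast markers were lower in pup hippocampus for 5 of 7 genes and endothelial markers for 4 of 7 in pups and 2 of 7 in adults, and their part in the tissue differences was not tested. The pup hippocampi differed in cardiomyocyte markers, which averaged 11.48 in replicate 1, 10.00 in replicate 2 and 9.36 in replicate 3, so counts of calls that rest on replicate 1 are given with and without it. The 18 hybridization controls averaged 13.16 in pup heart and 13.15 in pup hippocampus but 10.73 in adult heart and 10.80 in adult hippocampus, and their part in the age comparisons was not tested.

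Hippocampus was compared with heart at each age to ask how the level of the pathway differs between the tissues. In pups 20 of the 35 members were lower in hippocampus than in heart (57.1%, against 7.43% of all genes) and 1, Acsl3, was higher (2.86%, against 8.26% of all genes). In adults 18 members were lower (51.4%, against 10.2% of all genes) and 0 were higher (against 9.47% of all genes). The 20 members with an unadjusted p under 0.05 all had the lower value in hippocampus, but the share of all genes with such a p was not counted. The median member difference was -1.77 in pups and -1.72 in adults, while the median over all genes was -0.10 and -0.03. The samples of the 2 tissues did not overlap for 27 members in pups (77.1%, against 31.7% of all genes) and for 26 in adults (74.3%, against 66.0% of all genes, so that in adults this share says little about the members). Of the members, 17 were lower at both ages, 3 (Acot2, Acadm and Ppargc1a) were called in pups alone and 1 (Lpl) in adults alone.

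**Figure D1:**
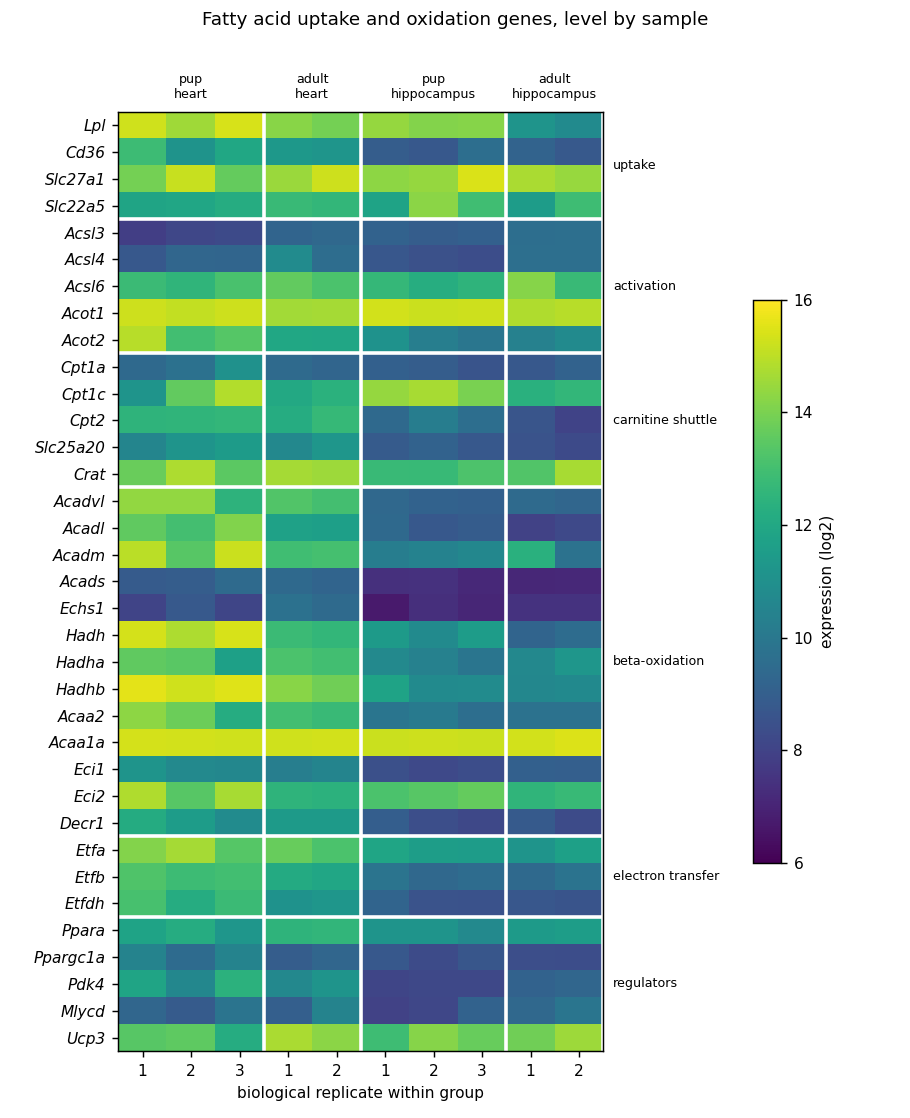
Expression (log2, colour scale from 6 to 16) of the 35 measured members in the 10 biological samples, each column a replicate within its group and members grouped by role. The electron transfer genes and, apart from Eci2 and Acaa1a, most beta-oxidation genes are brighter in the 5 heart columns than in the 5 hippocampus columns, whereas Acot1 and Acaa1a are near 15 in every column.

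**Figure D2:**
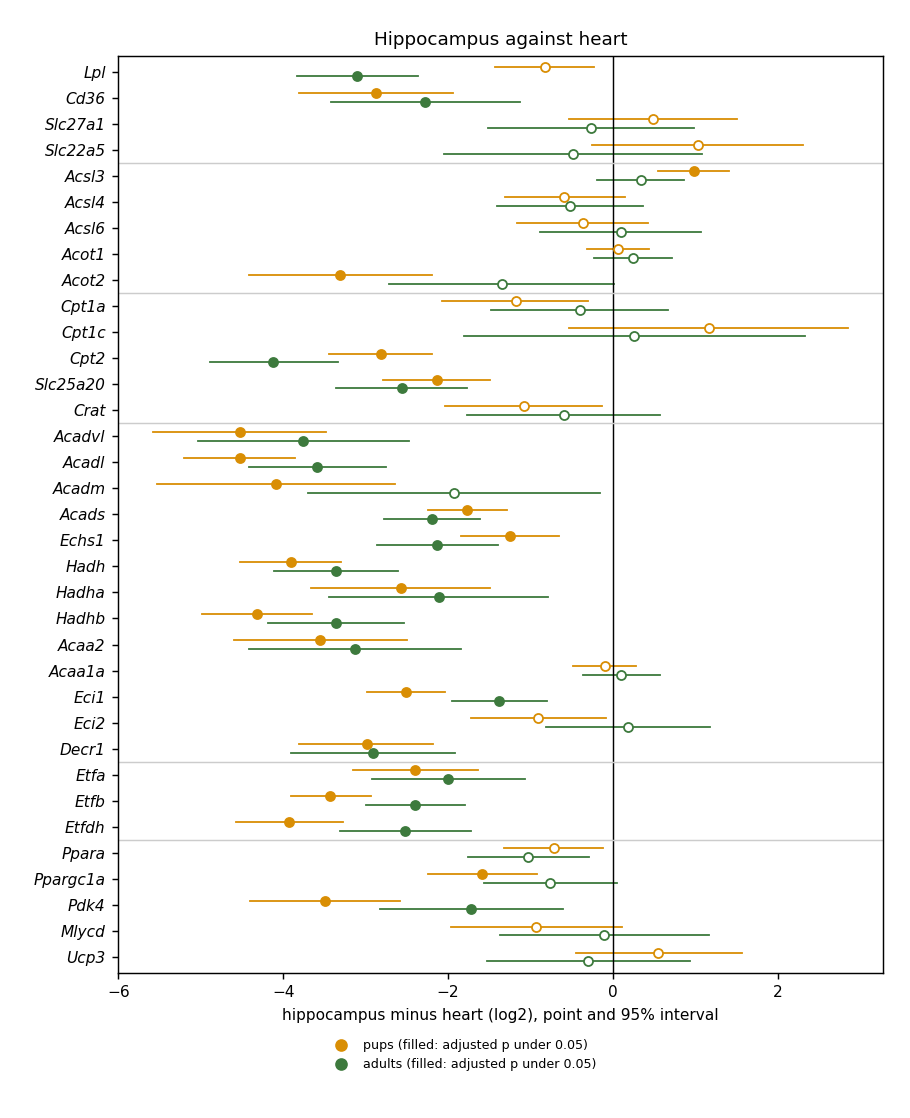
Hippocampus minus heart (log2) of each member in pups (3 against 3 samples) and adults (2 against 2), with limma 95% intervals and filled points for an adjusted p under 0.05. Filled points lie left of 0 for 20 members in pups and 18 in adults, and right of 0 for Acsl3 in pups alone.

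Of the uptake genes, Cd36 and Lpl were lower in hippocampus and Slc27a1 and Slc22a5 did not pass the test. Cd36, a membrane protein that carries fatty acids into the cell, was 2.88 lower in pup hippocampus (SE 0.41, adjusted p = 0.00148) and 2.28 lower in adult hippocampus (SE 0.51, adjusted p = 0.0139). Lpl measured 15.29, 14.57 and 15.40 in the 3 pup hearts, 14.24 and 13.92 in the 2 adult hearts, 14.43, 14.15 and 14.18 in the 3 pup hippocampi and 11.17 and 10.78 in the 2 adult hippocampi. This enzyme, lipoprotein lipase, frees fatty acids from circulating triglyceride, and its 3 pup hippocampi lay just below the pup hearts while the 2 adult hippocampi lay far below every other sample. The tissue difference of Lpl was -0.83 in pups (SE 0.26, adjusted p = 0.0666) and -3.10 in adults (SE 0.32, adjusted p = 0.000515), an 8.59-fold lower level in adult hippocampus. Slc27a1, a fatty acid transport protein, lay between 13.63 and 15.43 over the 10 samples, and Slc22a5, the carnitine transporter, between 11.53 and 14.27.

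Activation genes showed no common direction. Acsl3 measured 7.84, 8.11 and 8.24 in the 3 pup hearts, 9.21 and 9.37 in the 2 adult hearts, 9.15, 8.93 and 9.05 in the 3 pup hippocampi and 9.61 and 9.64 in the 2 adult hippocampi. In pups the 3 hippocampi lay above the 3 hearts, and the difference of this long-chain acyl-CoA synthetase was 0.98 (SE 0.19, adjusted p = 0.00798), against 0.34 in adults (SE 0.23, adjusted p = 0.361). Without probe sets of the types _s_at, _x_at and _a_at, which can match several transcripts, the pup difference was 0.79 and not called (adjusted p = 0.26). Acsl4 measured 8.75, 9.31 and 9.28 in the 3 pup hearts, 10.81 and 9.57 in the 2 adult hearts, 8.72, 8.49 and 8.38 in the 3 pup hippocampi and 9.66 and 9.67 in the 2 adult hippocampi. Acsl4, a synthetase that favours arachidonate, had every adult sample above the pup samples of its tissue but did not pass the test (adjusted p = 0.0633 in heart and 0.061 in hippocampus), and its technical arrays in adult heart differed by 1.30 and 1.87. Acsl6 measured 12.82, 12.55 and 13.12 in the 3 pup hearts, 13.60 and 13.15 in the 2 adult hearts, 12.65, 12.24 and 12.49 in the 3 pup hippocampi and 14.17 and 12.77 in the 2 adult hippocampi. Acsl6, a synthetase known from brain, had tissue differences of -0.37 in pups and 0.10 in adults (95% intervals from -1.16 to 0.43 and from -0.88 to 1.07), and the technical arrays of adult hippocampus replicate 2 read 14.11 and 11.44.

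Acot2 measured 14.93, 12.98 and 13.35 in the 3 pup hearts, 11.95 and 11.92 in the 2 adult hearts, 11.11, 10.28 and 9.94 in the 3 pup hippocampi and 10.40 and 10.77 in the 2 adult hippocampi. Acot2, a mitochondrial acyl-CoA thioesterase, was 3.31 lower in pup hippocampus than in pup heart (SE 0.49, adjusted p = 0.0018) and differed by -1.35 in adults without a call (SE 0.60, adjusted p = 0.156). Its cytosolic paralogue Acot1 lay between 14.61 and 15.31 in all 10 samples, and as the sequences of these paralogues are closely alike, their probe sets may share transcripts.

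In the carnitine shuttle the steps at the inner mitochondrial membrane were lower in hippocampus. Cpt2 measured 12.51, 12.56 and 12.64 in the 3 pup hearts, 12.19 and 12.68 in the 2 adult hearts, 9.40, 10.23 and 9.62 in the 3 pup hippocampi and 8.64 and 8.00 in the 2 adult hippocampi. Cpt2, which turns acylcarnitine back to acyl-CoA inside mitochondria, separated the tissues completely, by 2.82 in pups (SE 0.28, adjusted p = 0.000161) and by 4.12 in adults (SE 0.34, adjusted p = 0.000208), the largest difference among the members in adults and a 17.3-fold lower level. Slc25a20, the carnitine-acylcarnitine translocase, was 2.14 lower in pup hippocampus (SE 0.29, adjusted p = 0.00101) and 2.56 lower in adult hippocampus (SE 0.35, adjusted p = 0.00162).

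Of the carnitine palmitoyltransferase 1 genes, 2 were measured: the liver form Cpt1a, which catalyses the step at the outer mitochondrial membrane, and the brain form Cpt1c. Cpt1a measured 9.41, 9.72 and 11.04 in the 3 pup hearts, 9.45 and 9.27 in the 2 adult hearts, 9.06, 8.95 and 8.61 in the 3 pup hippocampi and 8.77 and 9.14 in the 2 adult hippocampi. Each pup heart was above every pup hippocampus, but the difference of -1.18 did not pass the test (SE 0.39, adjusted p = 0.0744). Cpt1c measured 11.18, 13.60 and 14.84 in the 3 pup hearts, 12.04 and 12.40 in the 2 adult hearts, 14.43, 14.69 and 13.98 in the 3 pup hippocampi and 12.34 and 12.62 in the 2 adult hippocampi. The pup hearts of Cpt1c spread over 3.66 and the tissue difference was 1.16 in pups (SE 0.75, adjusted p = 0.359) and 0.26 in adults (SE 0.92, adjusted p = 0.884), with 95% intervals from -0.53 to 2.85 and from -1.81 to 2.33. Crat, carnitine acetyltransferase, lay between 12.74 and 14.77 and was not called.

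Beta-oxidation was the largest group of members, and of its 13 measured genes 11 were lower in pup hippocampus (84.6%, against 7.43% of all genes). In adult hippocampus 10 were lower (76.9%, against 10.2% of all genes). The median differences were -2.99 in pups and -2.19 in adults, against -3.43 and -2.40 for the 3 electron transfer genes. Acadvl measured 14.36, 14.37 and 12.45 in the 3 pup hearts, 13.29 and 13.02 in the 2 adult hearts, 9.38, 9.14 and 9.07 in the 3 pup hippocampi and 9.47 and 9.31 in the 2 adult hippocampi. Acadvl, the very long-chain acyl-CoA dehydrogenase, was 4.53 lower in pup hippocampus (SE 0.46, 23.1-fold, adjusted p = 0.000194) and 3.76 lower in adult hippocampus (SE 0.57, 13.6-fold, adjusted p = 0.00246). Acadl measured 13.57, 13.01 and 14.09 in the 3 pup hearts, 11.73 and 11.64 in the 2 adult hearts, 9.42, 8.74 and 8.90 in the 3 pup hippocampi and 7.98 and 8.21 in the 2 adult hippocampi. The long-chain dehydrogenase Acadl was likewise 4.53 lower in pup hippocampus (SE 0.30, adjusted p = 1.45e-05) and 3.59 lower in adult hippocampus (SE 0.37, adjusted p = 0.000477), and no heart sample came within 2 of any hippocampus sample.

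Acadm measured 14.95, 13.40 and 15.18 in the 3 pup hearts, 12.94 and 13.04 in the 2 adult hearts, 10.22, 10.43 and 10.63 in the 3 pup hippocampi and 12.33 and 9.78 in the 2 adult hippocampi. The medium-chain dehydrogenase Acadm was 4.09 lower in pup hippocampus (SE 0.64, adjusted p = 0.00245), but adult hippocampus replicate 1 stood far above replicate 2 and the adult difference of -1.93 was not called (SE 0.78, adjusted p = 0.12). Acads, the short-chain dehydrogenase, had lower levels in every hippocampus, between 7.10 and 7.42, than in any heart, between 8.89 and 9.44, with differences of -1.77 in pups (SE 0.21, adjusted p = 0.000505) and -2.19 in adults (SE 0.26, adjusted p = 0.000815).

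Hadh measured 15.36, 14.76 and 15.39 in the 3 pup hearts, 12.83 and 12.64 in the 2 adult hearts, 11.45, 10.80 and 11.51 in the 3 pup hippocampi and 9.21 and 9.53 in the 2 adult hippocampi. Hadh, the short-chain hydroxyacyl-CoA dehydrogenase, was 3.91 lower in pup hippocampus (SE 0.27, adjusted p = 1.8e-05) and 3.36 lower in adult hippocampus (SE 0.33, adjusted p = 0.000396). Hadhb measured 15.60, 15.29 and 15.52 in the 3 pup hearts, 14.24 and 13.83 in the 2 adult hearts, 11.82, 10.80 and 10.82 in the 3 pup hippocampi and 10.61 and 10.74 in the 2 adult hippocampi. Hadhb, the thiolase subunit of the mitochondrial trifunctional protein, was 4.32 lower in pup hippocampus (SE 0.30, 20.0-fold, adjusted p = 1.75e-05) and 3.36 lower in adult hippocampus (SE 0.36, 10.3-fold, adjusted p = 0.000589), and Hadha, its partner subunit, was 2.57 and 2.11 lower. The other beta-oxidation genes called lower at both ages were Echs1 (enoyl-CoA hydratase), Acaa2 (the mitochondrial thiolase), Eci1 (an enoyl-CoA isomerase) and Decr1 (2,4-dienoyl-CoA reductase, used for unsaturated chains), with differences from -1.25 for Echs1 to -3.55 for Acaa2 in pups and from -1.38 for Eci1 to -3.13 for Acaa2 in adults. Eci2, an isomerase found in mitochondria and peroxisomes, differed by -0.91 in pups and 0.18 in adults without a call. Acaa1a, the peroxisomal thiolase, spanned only 0.27 over all 10 samples, from 15.20 to 15.48, close to the highest values of the arrays.

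All 3 genes of electron transfer were lower in hippocampus at both ages. Etfdh measured 13.09, 12.21 and 12.81 in the 3 pup hearts, 11.10 and 11.24 in the 2 adult hearts, 9.24, 8.56 and 8.53 in the 3 pup hippocampi and 8.72 and 8.58 in the 2 adult hippocampi. Etfdh, which passes electrons from the flavoprotein to ubiquinone, was 3.93 lower in pup hippocampus (SE 0.29, adjusted p = 2.37e-05) and 2.52 lower in adult hippocampus (SE 0.35, adjusted p = 0.00173). The flavoprotein subunits were also lower, Etfa by 2.40 in pups and 2.00 in adults and Etfb by 3.43 and 2.40.

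Among the regulators, Pdk4 was lower in hippocampus at both ages, Ppargc1a was lower in pups, and Ppara, Mlycd and Ucp3 were not called. Pdk4, a kinase that turns off pyruvate dehydrogenase, was 3.49 lower in pup hippocampus (SE 0.40, adjusted p = 0.000401) and 1.72 lower in adult hippocampus (SE 0.49, adjusted p = 0.0387). Ppargc1a, a coactivator of mitochondrial genes, was 1.59 lower in pup hippocampus (SE 0.29, adjusted p = 0.00609) and differed by -0.76 in adults without a call (SE 0.36, adjusted p = 0.179). With the mean over its 5 probe sets the pup difference was -0.30 (adjusted p = 0.613). Ppara, the fatty acid-sensing nuclear receptor, differed by -0.72 in pups and by -1.03 in adults, the latter close to the threshold (SE 0.32, adjusted p = 0.0549).

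Tissue calls were steady against leaving out samples: in pups 21 of 21 calls remained whichever of the 6 pup samples was left out, with 21 calls without pup hippocampus replicate 1, and in adults 14 of 18 calls remained under each of 4 omissions, the exceptions being Cd36, Etfa, Hadha and Pdk4. Pup hippocampus replicate 1 was the highest of its group for 11 of the 20 members called lower there (55.0%, against 38.0% of all genes), and the part of its cardiomyocyte markers in this was not tested.

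To describe the promoters of the members, the letters AGGTCA, the core bound by nuclear receptors of the PPAR and estrogen-related receptor kind, were searched on both strands in RefSeq promoter windows of 250 bases before to 50 bases after each start site (mouse build GRCm38.p6). Windows were at hand for 31 of the 35 measured members, some with more than 1 start site, and not for Lpl, Crat, Acaa2 and Decr1. The letters occurred in 8 of the 35 windows of these 31 genes (22.9%), against 16.3% of all 32851 windows, in Acadm, Acadvl, Acsl6, Cd36, Cpt1a, Cpt1c, Echs1 and Ucp3. A direct repeat of AGGTCA with 1 base between the copies occurred in 0 member windows (0.0396% of all windows). The longer form TCAAGGTCA, which contains AGGTCA, occurred in 1 member window (2.86%, against 0.423%). The 250 upstream bases follow for the 3 members that carry the letters and were lower in hippocampus at both ages, each on the minus strand, 5′ to 3′. Capitals mark AGGTCA or its reverse complement TGACCT. The lines are Acadvl at chr11:70015429-70015678, Cd36 at chr5:17835897-17836146 and Echs1 at chr7:140116422-140116671.
Acadvl: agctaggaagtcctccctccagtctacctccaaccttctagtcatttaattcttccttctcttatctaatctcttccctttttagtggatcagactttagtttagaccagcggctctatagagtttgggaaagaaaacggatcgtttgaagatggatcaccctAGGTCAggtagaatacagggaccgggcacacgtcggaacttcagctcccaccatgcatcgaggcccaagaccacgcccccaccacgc
Cd36: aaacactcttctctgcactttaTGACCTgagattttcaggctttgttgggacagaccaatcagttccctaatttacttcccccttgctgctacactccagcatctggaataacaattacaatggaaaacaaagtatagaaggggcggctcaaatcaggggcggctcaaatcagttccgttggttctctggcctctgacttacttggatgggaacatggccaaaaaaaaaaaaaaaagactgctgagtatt
Echs1: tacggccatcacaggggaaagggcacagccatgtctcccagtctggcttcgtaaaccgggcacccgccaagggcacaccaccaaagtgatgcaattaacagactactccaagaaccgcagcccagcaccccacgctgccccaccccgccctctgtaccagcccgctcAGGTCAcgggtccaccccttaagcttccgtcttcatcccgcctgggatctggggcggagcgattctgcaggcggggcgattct
The motif begins 87 bases before the start site in Acadvl, 228 in Cd36 and 83 in Echs1. The other carriers, Acadm, Acsl6, Cpt1a, Cpt1c and Ucp3, were not lower in hippocampus at both ages. Whether the letters are more frequent in members that differ between the tissues was not tested. A match of these letters describes the sequence and does not show that a factor binds there.

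Adult heart was compared with pup heart to ask how the pathway's level differs with age in the tissue that uses it most. Of the 35 members 8 were lower in adult heart (22.9%, against 9.38% of all genes) and 2 were higher (5.71%, against 11.2% of all genes), with a median member difference of -0.54 where the median over all genes was 0.09. The samples of the ages did not overlap for 19 members (54.3%, against 48.7% of all genes), so that the share without overlap was near the background. The lower members were Lpl, Acot2, Acadl, Hadh, Hadhb, Eci2, Etfb and Etfdh, and the higher ones were Acsl3 and Echs1. Of the 5 genes of the carnitine shuttle and the 5 regulators 0 were called by limma on the probe set in use. Of these only Ppara, Ppargc1a and Ucp3 had an unadjusted p under 0.05. Other probe sets of Cpt1a, Slc25a20 and Ppargc1a were called lower, as given below.

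**Figure D3:**
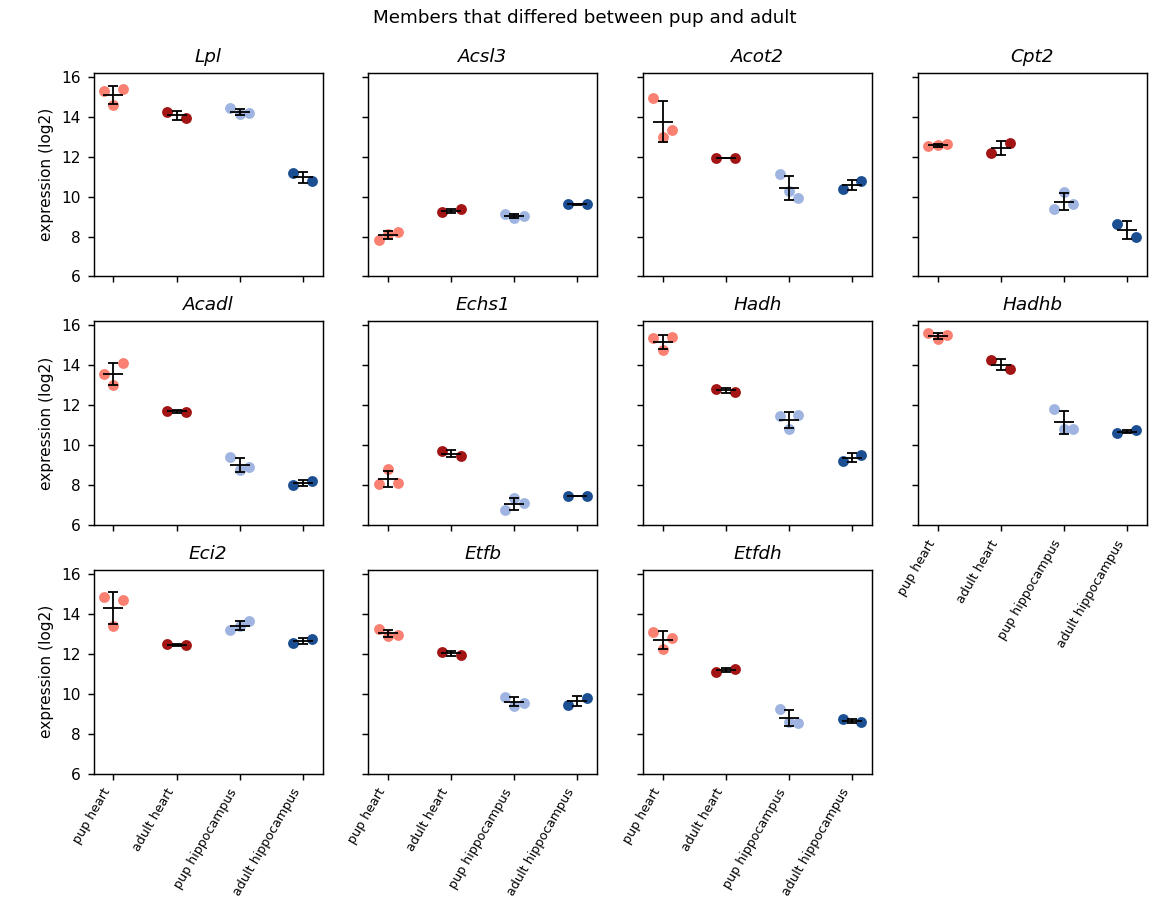
Expression (log2) of the 11 members called in an age comparison, with every biological sample as a point and the group mean ± SD in black (3 samples for pups, 2 for adults). In heart the adult points lie below the pup points for 8 of these genes and above them for Acsl3 and Echs1, and in hippocampus the adult points of Lpl, Cpt2 and Hadh lie below the pup points.

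The largest heart decrease was that of Hadh, whose 3 pup hearts lay between 14.76 and 15.39 and whose 2 adult hearts read 12.83 and 12.64, a difference of -2.43 (SE 0.30, 5.4-fold, adjusted p = 0.00155). Acadl fell by 1.87 (SE 0.34, adjusted p = 0.0059) and Acot2 by 1.82 (SE 0.55, adjusted p = 0.0459), the latter with pup heart replicate 1, at 14.93, well above the other 2 pup hearts. Eci2 measured 14.82, 13.39 and 14.71 in the 3 pup hearts, 12.49 and 12.42 in the 2 adult hearts, 13.18, 13.41 and 13.62 in the 3 pup hippocampi and 12.53 and 12.74 in the 2 adult hippocampi. Every adult heart of Eci2 was below every pup heart, by 1.86 in the mean (SE 0.40, adjusted p = 0.0128), while in hippocampus the difference was -0.77 (SE 0.40, adjusted p = 0.226). Hadhb fell by 1.43 (SE 0.33, adjusted p = 0.0166), Lpl by 1.00 (SE 0.30, adjusted p = 0.0413) and Etfdh by 1.54 (SE 0.32, adjusted p = 0.011). Etfb measured 13.23, 12.87 and 12.96 in the 3 pup hearts, 12.10 and 11.92 in the 2 adult hearts, 9.85, 9.38 and 9.55 in the 3 pup hippocampi and 9.43 and 9.79 in the 2 adult hippocampi. Etfb, the beta subunit of the electron transfer flavoprotein, was 1.01 lower in adult heart (SE 0.24, adjusted p = 0.019).

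Echs1, the hydratase of short chains, went the other way. Echs1 measured 8.05, 8.79 and 8.09 in the 3 pup hearts, 9.72 and 9.44 in the 2 adult hearts, 6.73, 7.36 and 7.09 in the 3 pup hippocampi and 7.45 and 7.45 in the 2 adult hippocampi. Its adult hearts were above its pup hearts by 1.27 (SE 0.29, adjusted p = 0.0169), while both hippocampal groups lay below every heart sample. Acsl3 was 1.22 higher in adult heart (SE 0.21, adjusted p = 0.00531), and its 2 adult hearts lay above all 3 pup hearts. Among members without a call, the difference was -1.52 for Acadm (SE 0.72, adjusted p = 0.17), -1.01 for Ppargc1a (SE 0.33, adjusted p = 0.0586) and 1.45 for Ucp3, a mitochondrial carrier protein (SE 0.50, adjusted p = 0.0696).

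Marker lists of cell types also differed between the heart groups. Fibroblast markers averaged 13.62 in pup heart and 10.72 in adult heart (5 of 7 lower) and cardiomyocyte markers 15.42 and 14.41 (2 of 8 called lower). All 8 cardiomyocyte markers had a negative difference, with a median of -0.78. For all 8 the ages did not overlap (100%, against 48.7% of all genes). Endothelial markers averaged 11.20 and 10.27 (3 of 7 lower, 1 higher) and blood markers 8.54 and 9.57 (3 of 4 higher). The part of these markers in the heart calls was not tested. Members called were 9 without pup heart replicate 1, 13 without replicate 2 and 10 without replicate 3. The shares of all genes called were 17.1%, 23.3% and 18.2%. Leaving out either adult heart left a single adult heart, and most of the 10 calls were then lost. The share of members called was then near that of all genes. Without each of the 5 heart samples in turn, Acadl, Acsl3 and Hadh alone kept their calls throughout.

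Different probe sets of a gene did not always move together with age. Of the 22 members with several probe sets, 8 had differences of both signs in the heart age comparison and 2 had probe sets called in opposite directions. For Acadl the probe set in use (1448987_at) was 1.87 lower in adult heart and the other (1448988_at) was 1.63 higher (adjusted p = 0.00742 over all probe sets), although both were lower in hippocampus than in heart at both ages. For Acsl3 the probe set in use (1452771_s_at) was 1.22 higher and a second (1428386_at) was 2.12 lower (adjusted p = 0.00822), while the third (1428387_at) differed by -0.30. Of the 3 Hadh probe sets, those that can also match related transcripts (1455972_x_at and 1436756_x_at) fell by 2.43 and 2.47, and the third (1460184_at) differed by -0.39 (adjusted p = 0.423). Acaa2, not called on the probe set in use, was 2.24 higher in adult heart on its dimmest probe set (1455061_a_at, adjusted p = 0.0197), and Ppargc1a was 2.55 and 2.76 lower on 2 of its 5 probe sets (1434099_at and 1434100_x_at). In the carnitine shuttle, Cpt1a had 2 of its 3 probe sets called lower in adult heart and Slc25a20 1 of its 2. Neither gene had probe sets of both signs, and neither was called on the probe set in use.

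**Figure D4:**
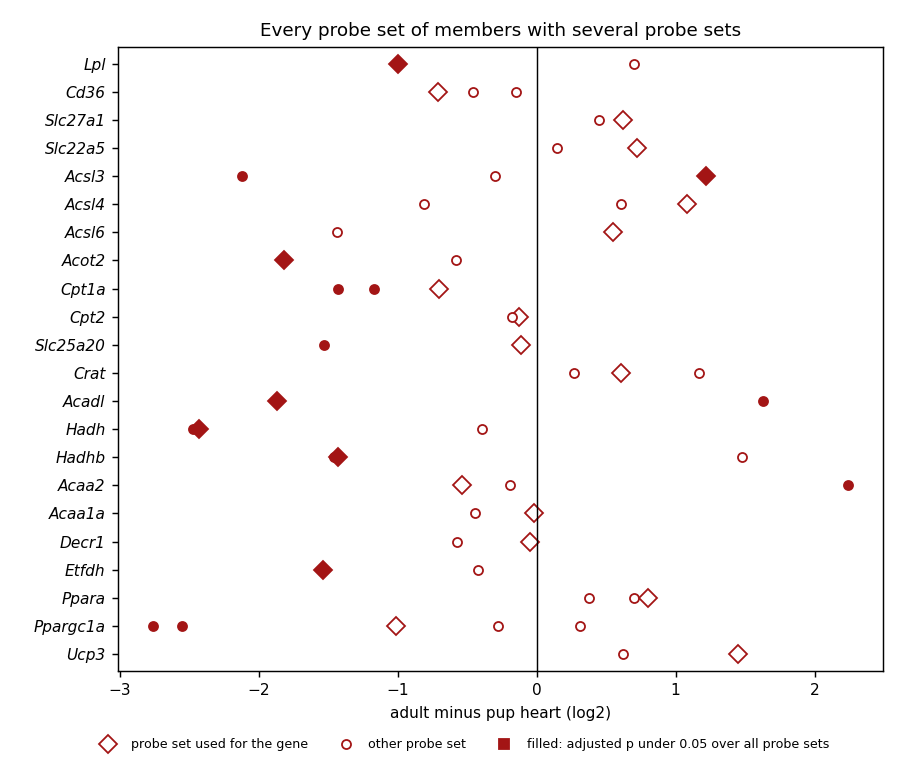
Adult minus pup heart (log2) for every probe set of the 22 members with several probe sets, with diamonds for the probe set used, circles for the others and filled marks for an adjusted p under 0.05 over all probe sets. Acadl and Acsl3 have filled marks on both sides of 0, whereas the filled marks of Hadh, Hadhb and Ppargc1a lie on the left.

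Between the tissues, differences of both signs were found for 8 of these 22 members in pups and 5 in adults. However, 9 members had at least 2 probe sets called in the same direction in pups and 9 in adults, and 0 had probe sets called in opposite directions within either comparison. That direction was lower in hippocampus except for Acsl3 in pups and Ppargc1a in adults, each with 2 probe sets called higher. In Ppargc1a these went against the probe set in use. For Ppargc1a the probe sets 1434099_at and 1434100_x_at were 2.53 and 2.83 higher in adult hippocampus than in adult heart, whereas the probe set in use differed by -0.76 without a call. The dimmest Acsl3 probe set (1428386_at) was 4.66 higher in adult hippocampus.

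In hippocampus few members differed with age. Of the 35 members 3 were lower in adult hippocampus (8.57%, against 7.44% of all genes) and 0 were higher (against 8.64% of all genes), so the share called was near the background, and the median member difference was 0.02 beside 0.10 over all genes. An unadjusted p under 0.05 was found for 11 members, 4 of them with a lower and 7 with a higher value in adults. The share of all genes with such a p was not counted, so this count alone says little about the members. The ages did not overlap for 20 members (57.1%, against 55.1% of all genes). The lower members were Lpl, Cpt2 and Hadh. Without pup hippocampus replicate 1 there were also 3 calls, and without adult hippocampus replicate 1 there was 1, Lpl. Fibroblast markers averaged 10.97 in pup and 10.15 in adult hippocampus (3 of 7 lower), cardiomyocyte markers 10.28 and 8.87 (2 of 8 lower) and oligodendrocyte markers 9.77 and 10.60 (2 of 6 higher). Choroid plexus markers averaged 10.24 and 10.08 (1 of 5 lower, 1 higher). Among them Ttr averaged 15.75 and 11.75, while the other 4 had a higher mean in adult than in pup hippocampus. The part of these markers in the hippocampus calls was not tested.

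Lpl had the largest age difference of any member in either tissue: the 3 pup hippocampi lay between 14.15 and 14.43 and the 2 adult hippocampi at 11.17 and 10.78, a decrease of 3.28 (SE 0.30, 9.69-fold, adjusted p = 0.000751). Its second probe set (1431056_a_at) differed by -0.78 (adjusted p = 0.0995 over all probe sets). Cpt2 fell by 1.43 (SE 0.31, adjusted p = 0.017), with both adult hippocampi below the 3 pup hippocampi. Hadh fell by 1.88 (SE 0.30, adjusted p = 0.00518), again on the probe sets that can match related transcripts, and the third Hadh probe set differed by -0.05. Acsl4, Acsl6, Mlycd (malonyl-CoA decarboxylase, which removes an inhibitor of carnitine palmitoyltransferase 1), Crat and Pdk4 had differences of 1.14, 1.01, 1.23, 1.10 and 1.06, each with an unadjusted p under 0.05 and an adjusted p between 0.061 and 0.147.

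**Figure D5:**
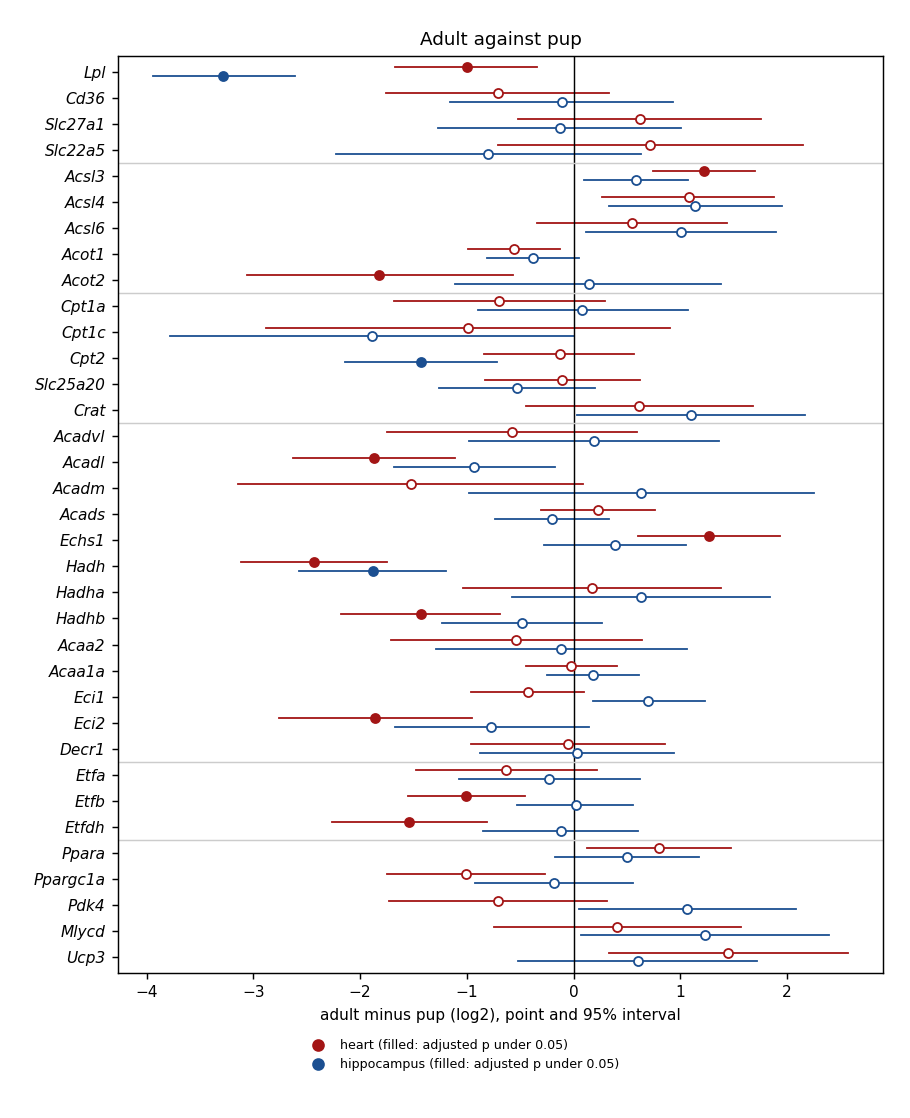
Adult minus pup (log2) of each member in heart and in hippocampus (2 against 3 samples each), with limma 95% intervals and filled points for an adjusted p under 0.05. The longest distance from 0 is that of Lpl in hippocampus (-3.28), and the electron transfer genes Etfb and Etfdh have filled points on the left in heart and open points near 0 in hippocampus.

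Whether the age difference itself differed between the tissues was tested by subtracting the adult-minus-pup difference of hippocampus from that of heart. It was called for 1 of the 35 members, Lpl, in the positive direction (2.86%, against 2.45% of all genes), and for 0 in the negative direction (against 1.23% of all genes), so the count was near the background. An unadjusted p under 0.05 was found for 7 members, 2 positive and 5 negative, with no count over all genes to set beside it. For Lpl the interaction was 2.27 (SE 0.42, adjusted p = 0.0222), since the level fell by 1.00 in heart and by 3.28 in hippocampus. The call was lost when any of the 3 pup hippocampi, either adult heart or either adult hippocampus was left out, with an interaction between 2.07 and 2.47 in these fits and an adjusted p between 0.0192 and 0.0986 over all 10 omissions. Etfdh had an interaction of -1.41 (SE 0.45, adjusted p = 0.125) and Etfb of -1.03 (SE 0.34, adjusted p = 0.135), so that their lower level in adult heart alone was not shown to differ from the change in hippocampus. Eci1 differed by -0.43 with age in heart and by 0.70 in hippocampus, with an interaction of -1.13 (SE 0.33, adjusted p = 0.0967), the closest to the threshold among the members not called.

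A further list of 61 genes of lipid binding, lipid droplets, peroxisomal oxidation, ketone bodies and their regulation was set beside the members, and 56 were measured. In pups 11 of these were lower in hippocampus (19.6%, against 7.43% of all genes) and 5 were higher (8.93%, against 8.26%), with 15 calls without pup hippocampus replicate 1. In adults also 11 were lower (19.6%, against 10.2% of all genes) and 5 higher (8.93%, against 9.47%). Fabp4, a fatty acid-binding protein of adipocytes and capillaries, was 4.89 lower in pup hippocampus (SE 0.58, adjusted p = 0.000462) and 3.42 lower in adult hippocampus (SE 0.71, adjusted p = 0.00996), where the call was lost without adult heart replicate 1 (adjusted p = 0.062) or replicate 2 (0.0505). Plin5, which ties lipid droplets to mitochondria, was 4.02 and 2.81 lower. Acot13, a thioesterase, was 3.17 lower in pup hippocampus, and Ech1, a dienoyl-CoA isomerase, was 3.11 lower in adult hippocampus, where the thioesterase Acot8 was 2.63 lower.

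With age, 5 genes of this further list were higher (8.93%, against 11.2% of all genes) and 7 lower (12.5%, against 9.38%) in adult heart, and 2 were higher (3.57%, against 8.64%) and 5 lower (8.93%, against 7.44%) in adult hippocampus, so these shares were near the background, or below it for the higher genes. In heart 2 calls were made without adult replicate 1 and 4 without adult replicate 2. In hippocampus each omission moved the 7 calls to between 2 and 4, with 3 without pup hippocampus replicate 1. Bdh1 measured 8.22, 7.89 and 7.70 in the 3 pup hearts, 10.72 and 10.68 in the 2 adult hearts, 12.38, 11.88 and 12.00 in the 3 pup hippocampi and 9.89 and 10.49 in the 2 adult hippocampi. Bdh1, the enzyme that interconverts the ketone bodies acetoacetate and beta-hydroxybutyrate, was 4.15 higher in hippocampus than in heart in pups (SE 0.24, 17.7-fold, adjusted p = 7.53e-06), rose with age by 2.76 in heart (SE 0.27, adjusted p = 0.000663) and fell with age by 1.90 in hippocampus (SE 0.27, adjusted p = 0.00357). Acat1, the thiolase of ketone body use, was 1.85 lower in adult heart (adjusted p = 0.0153) and 1.72 lower in adult hippocampus (adjusted p = 0.025), and Ppargc1b, a coactivator related to Ppargc1a, 2.28 (adjusted p = 0.00395) and 1.34 lower (adjusted p = 0.0385). In adult heart Plin5 was 1.73 lower, and Acad11, an acyl-CoA dehydrogenase, and Acot8 were 1.76 and 1.54 higher. In adult hippocampus Slc27a4, a fatty acid transport protein, was 2.07 lower (SE 0.25, adjusted p = 0.00188), and Acad9, a dehydrogenase that also serves assembly of respiratory complex I, and Esrrg, the estrogen-related receptor gamma, were 1.54 (adjusted p = 0.0397) and 1.08 higher (adjusted p = 0.011). Of these hippocampus calls, that of Ppargc1b was lost in 5 of 5 omissions of a sample (adjusted p between 0.0525 and 0.179), those of Acat1 and Acad9 in 4 of 5 and that of Esrrg in 2 of 5.

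Over all comparisons 23 of the 35 members were called at least once. The share of all genes called at least once was not counted, so this count alone says little about the members. The 12 that were never called on the probe set in use were Slc27a1, Slc22a5, Acsl4, Acsl6, Acot1, Cpt1a, Cpt1c, Crat, Acaa1a, Ppara, Mlycd and Ucp3. An uncalled difference is not a shown equality: the median standard error was 0.34 for an age difference, 0.30 between pup tissues and 0.37 between adult tissues, and no signal was compared with a background level, so that low values such as those of Acads and Echs1 in hippocampus, and values near the top of the scale, may understate a difference.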

How the data were processed

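Expression was measured on 14 single-colour Affymetrix arrays of C57BL/6 heart and hippocampus. The authors deposited log2 expression values of 45101 probe sets, summarized with RMA (version 2.0 in the submitters' processing notes) by the upper decile of the probes. Background correction and detection filters are not given in the sources used here, and the median centring and percentile scaling that the methods describe had not been applied to the deposited log2 values, which lay between 2.67 and 16.0. The number of columns of per-sample values left unused was 0. The submitters' labels call the adult RNA mRNA and the study's methods call it total RNA.

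Of the probe sets, 34945 named 1 gene, 932 several and 9160 none here, and 64 were controls. Symbols of 34741 were checked by Entrez identifier against RefSeq, and 0 changed. The brightest probe set with 1 gene stood for each of 18193 genes, and technical arrays were averaged, which left 10 biological samples. The titles give 2 replicates per adult tissue while other labels name 4, which was run as an alternative. The samples were fitted together in limma 3.58.1 (under R 4.3.3, statmod 1.5.0), where 4 group means, 6 residual and 3.10 prior degrees of freedom gave 5 two-sided contrasts, with Benjamini-Hochberg adjustment over all genes and a threshold of 0.05. The fit was tested on simulated data. The number of arrays limits the precision, and since no label says that replicates of adults came from separate animals, the p-values rest on a spread among samples that may be technical only.

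The members and the gene lists were chosen with earlier results of these data known. Values of every sample are given for members called in an age comparison or the interaction, for up to 5 members with the largest called tissue difference each way at each age, and for the Cpt1 and Acsl genes. Up to 6 genes of the further list are named per age comparison and up to 4 per tissue comparison. Alternatives were each array as a sample, 2 forms of blocking, 3 scalings, other rules for the probe set, a filter on low values, other spreads, the methods' t-test and leaving out each sample. A replicate number was not treated as a pairing in the main fit. Deviations of samples with the same number correlated at 0.20, -0.09 and 0.00 in pups and at -0.06 in adults. With so few samples per group these values cannot show whether the 2 tissues came from the same animals. Figures were drawn with matplotlib 3.10.9.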

Additional observations from a re-analysis of the deposited data

Results flagged for a closer look

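Lpl, lipoprotein lipase, was picked out because its age difference itself differed between the tissues, by 2.27 on the log2 scale (SE 0.42, adjusted p = 0.0222 by limma): all 3 pup hippocampi lay above both adult hippocampi by more than 2, and the adult hearts lay below the pup hearts by 1.00 in the mean. Among the further genes of the pathway, Bdh1, the ketone body dehydrogenase, had an interaction of 4.66 (SE 0.39, adjusted p = 0.00206), with adult above pup in every heart sample and adult below pup in every hippocampus sample. Esrrg, the estrogen-related receptor gamma, had an interaction of -1.47 (SE 0.30, adjusted p = 0.0322), with 2 adult hippocampi at 8.99 and 9.05 above 3 pup hippocampi between 7.78 and 8.04, but this call was lost in 8 of 10 omissions of a sample (adjusted p between 0.0351 and 0.118 over the 10) and with the mean over its probe sets, at -0.12 (adjusted p = 0.835). Of these further genes 2 had a called interaction, and 1 without pup hippocampus replicate 1. The adult samples share a source of RNA that the pup samples do not, and its part in these differences was not tested. No group holds enough biological samples for a search for outlying samples.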

How the results depend on the processing

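Of 933 results for the 53 member calls under the alternatives, 778 kept the direction and the call, 153 kept the direction without the call and 2 reversed: Acsl3 in heart with age, at -0.40 with the mean over its probe sets and -0.30 without probe sets of the types _s_at, _x_at and _a_at. Among the further genes, Acat1 in hippocampus with age turned to 0.34 without those types and Esrrg to -0.07 with the mean over probe sets, while without those types Plin5 in heart with age was -0.06 and not called, and Fabp4 stayed called at -1.31 between pup and -1.60 between adult tissues. The probe set rule also ended the heart calls of Acadl (-0.12), Hadhb (-0.47), Lpl (-0.15) and Etfdh (-0.98) with the mean over probe sets and of Hadh (-0.39) and Hadhb (-1.46) without those types, and in hippocampus those of Cpt2 (-0.67) and Hadh (-0.05). Between pup tissues it ended those of Ppargc1a (-0.30, mean over probe sets) and Acsl3 (0.79, without those types). The cause was not tested.

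With only the groups of a comparison in the fit, 5 of 35 members were called in heart with age (against 9.09% of all genes). In hippocampus with age 6 were called (against 21.5%). With each of the 14 arrays as a sample, 8 were called in hippocampus with age (against 23.7%) and 5 in the interaction (against 9.64%). With a random block these counts were 7 (against 21.9%) and 5 (against 8.41%). The methods' t-test at 0.05 called 0 members in heart with age (against 0.368% of all genes). It called 12 of 35 between pup tissues (against 5.24%) and 0 between adult tissues (against 0%). At its false discovery rate of 0.1% it called 0 members in each of these and in hippocampus with age, against 0% of all genes. Leaving out each sample gave 3 to 13 calls in heart with age, 1 to 3 in hippocampus with age, 21 to 23 between pup tissues, 14 to 16 between adult tissues and 0 to 3 in the interaction. The replicate block on the replicate number gave 21 calls between pup tissues, 19 between adult tissues and 0 in the interaction, where Lpl stayed at 2.27 with an adjusted p of 0.0609, in a range from 0.00112 to 0.0986 over its alternatives.

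For the further genes, the counts were 5 in heart with age with only those groups (against 9.09% of all genes). In hippocampus with age they were 12 with each array as a sample (against 23.7%) and 11 with a random block (against 21.9%). In the interaction they were 6 (against 9.64%) and 6 (against 8.41%). The interaction count was 1 with the mean over probe sets (against 3.23%), with low genes left out (against 2.12%) or with the replicate block (against 0.247%). The t-test at 0.05 called 0 in heart with age (against 0.368%) and 1 in hippocampus with age (against 5.71%). It called 8 between pup tissues (against 5.24%) and 0 between adult tissues (against 0%). At 0.1% it called 0 in each, against 0% of all genes. Leaving out each sample gave 2 to 16, 2 to 4, 15 to 18, 11 to 13 and 1 to 3 calls in the order of the comparisons above.

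Centring each array on its median moved the median over all genes in heart with age from 0.09 to -0.07 and that of the members from -0.54 to -0.69. Signal was not set against background, which limits what low values can show.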
